A study of Rattus norvegicus with 4 samples.

Results

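The integrated stress response and the genes of amino acid supply that it controls were followed in whole-lung mRNA of SD rats killed on day 28. Rats of the bleomycin group (n = 2, with 2 libraries) had been given bleomycin once at 5 mg/kg into the trachea in a volume of 0.2 mL, and those of the control group (n = 2, with 2 libraries) an equal volume of normal saline. Bleomycin, a cancer drug that cuts DNA, is a common means of producing lung fibrosis in rodents. The labels give neither the sex nor the age of the rats. The set held 36 genes, listed by symbol for their place in the Atf4 pathway, serine and one-carbon metabolism, proline synthesis or amino acid transport. Of these, 35 were found among the 22050 genes of the files and all 35 passed the filter on low counts. Nupr1, a stress-induced chromatin protein, was not found under its symbol and was not analysed here. Slc7a11 and Aldh1l2 had been noted beforehand for their high values in these bleomycin libraries, so their values are described without a test.

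The integrated stress response joins several kinds of stress to a common brake on protein synthesis. Kinases that sense unfolded protein, amino acid shortage or other stress phosphorylate the initiation factor eIF2, which lowers general translation while the mRNA of the transcription factor Atf4 is translated better. Atf4 then raises genes that import and make amino acids, charge transfer RNAs and supply one-carbon units, and in lasting stress it also raises Ddit3 (CHOP) and its partners. In fibroblasts the same pathway is known for feeding collagen synthesis, since collagen is rich in glycine and proline.

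In bleomycin-treated lungs several amino acid transporters, a mitochondrial folate enzyme and an enzyme of proline synthesis were higher, while the mRNA of Atf4 itself stood at 203 and 195 CPM (counts scaled to the size of the library) against 208 and 206 CPM in control libraries. Apart from Slc7a11 and Aldh1l2, 33 members were tested, of which 6 rose, 5 fell and 22 did not pass (quasi-likelihood test of edgeR, adjusted p under 0.05). The members that rose were Atf3, Mthfd2, Aldh18a1, Slc7a5, Slc7a1 and Slc1a5, and those that fell were Eif2ak4, Atf5, Shmt1, Slc6a9 and Cth. Among all 15709 tested genes 16.7% were called, 9.26% higher and 7.44% lower, and since the members were listed with results of this comparison known, nothing is read from their share. The median log2 change of the 33 was 0.20, beside 0.013 for all tested genes, and without bleomycin replicate 2 it was -0.013. Without control replicate 1 or without control replicate 2, edgeR called 0 of the 33, with 12 and 14 of them at an unadjusted p under 0.05. No member's call held when either control was left out.

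Values per library are given as CPM, the counts of a gene relative to the TMM-adjusted size of its library, with replicate 1 before replicate 2. Levels of different genes are compared only as FPKM, which also divide by transcript length. A log2 change is that of bleomycin over control, and SE is its standard error. Both bleomycin libraries lay above both controls for Slc7a11, Aldh1l2 and 13 of the other 33 members and below both for 11 of the 33, and the groups overlapped for 9. Among all tested genes the shares were 35.1% above and 33.4% below, from which nothing is read about the listed genes.

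**Figure D1:**
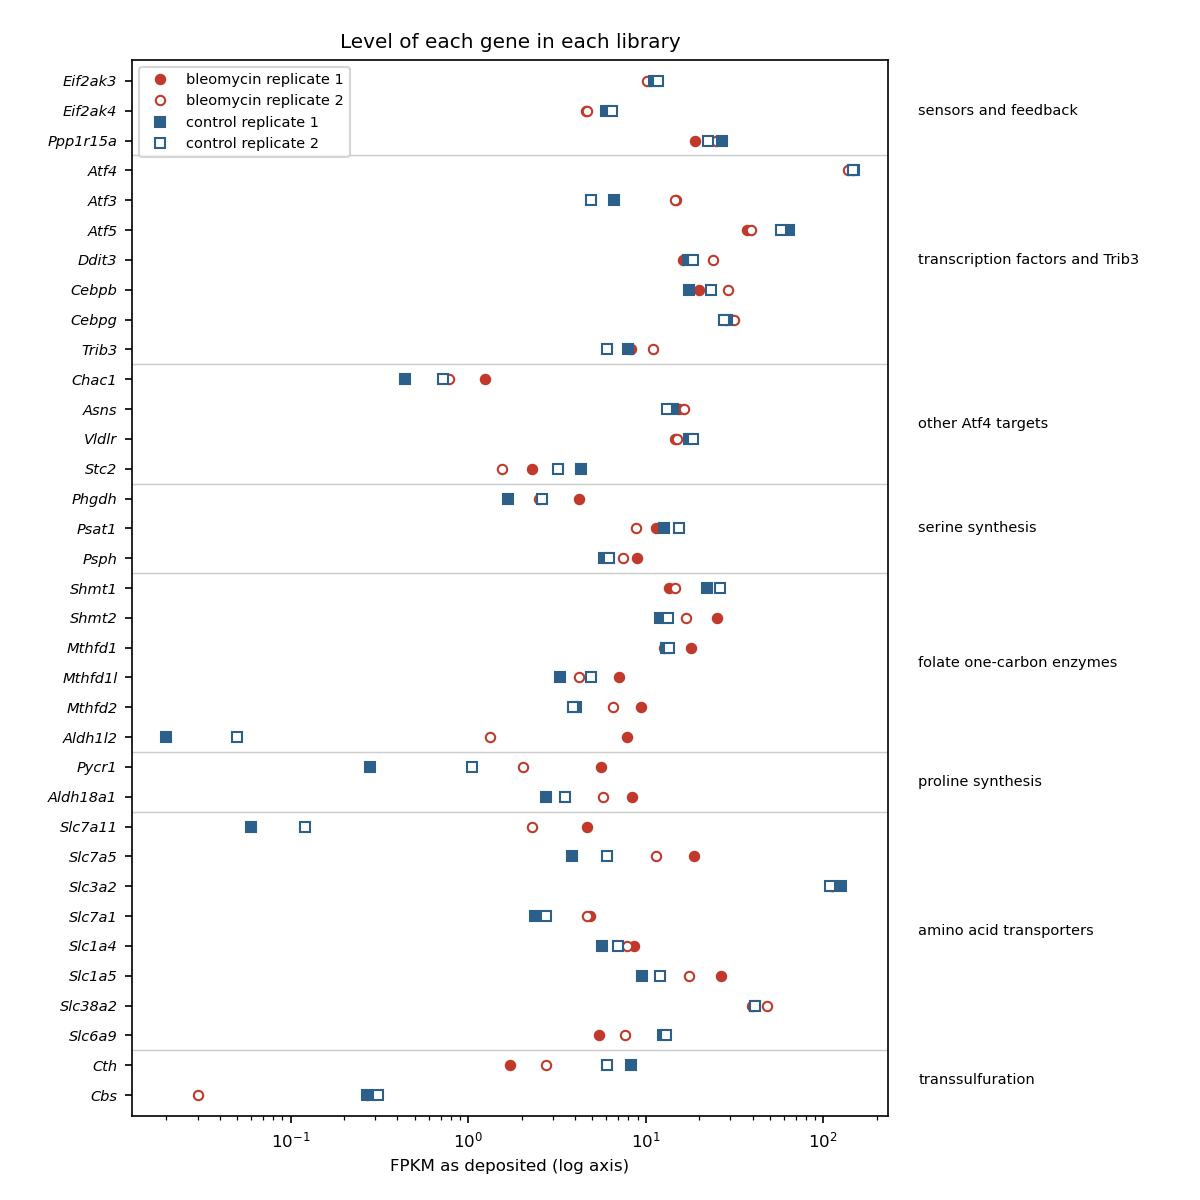
FPKM of the 35 members in each library on a log axis, grouped by role, with circles for bleomycin and squares for control (replicate 1 filled, replicate 2 open). Atf4 and Slc3a2 lay highest and nearly together in all 4 libraries, while Aldh1l2 lay at 7.87 and 1.33 FPKM in bleomycin against 0.02 and 0.05 FPKM in control.

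Total counts lay between 34683699 and 44381111 per library, so 3 counts corresponded to 0.0681 to 0.0868 CPM. All 8 lung identity markers were detected, with a summed level of 18920 and 30150 CPM in bleomycin and 40150 and 41440 CPM in control libraries. Of these 8, 3 fell. Markers of fibroblasts summed to 15460 and 8191 CPM in bleomycin against 3367 and 3369 CPM in control libraries (5 of 9 rose), those of dividing cells to 395 and 222 CPM against 69.2 and 75.7 CPM (8 of 8 rose), and those of macrophages to 3230 and 3058 CPM against 1350 and 1478 CPM (6 of 10 rose). Endothelial markers summed to 1553 and 2187 CPM in bleomycin against 4753 and 4106 CPM in control libraries (4 of 6 fell), and alveolar type 1 markers to 2719 and 4087 CPM against 8097 and 8266 CPM (7 of 8 fell). Alveolar type 2 markers summed to 18230 and 29930 CPM in bleomycin against 31990 and 32060 CPM in control libraries (0 of 8 called). Of these, 5 lay below both controls, and Sftpa1, Lamp3 and Napsa overlapped between the groups. Sftpc, the largest, had 6822 and 13620 CPM in bleomycin against 15430 and 14330 CPM in control libraries. Markers of neutrophils and lymphocytes summed to 84.3 and 118 CPM against 194 and 150.1 CPM (1 of 7 fell). Red blood cell markers summed to 1696 and 1863 CPM against 3784 and 2776 CPM (3 of 3 fell). Heart muscle markers stood highest in control replicate 1, with 124 and 74.4 CPM in bleomycin against 209 and 39.8 CPM in control. In whole lung, fewer or more cells of a type and less or more RNA per cell cannot be told apart.

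None of the 2 kinases and the feedback gene rose. Eif2ak4 (ENSRNOG00000006027), which encodes GCN2, the kinase that senses uncharged transfer RNA, fell slightly, with 40.9 and 42.3 CPM in bleomycin against 53.9 and 57.5 CPM in control libraries (log2 change -0.42 ± 0.09 SE; edgeR adjusted p = 0.0428). With bleomycin replicate 1 left out it did not pass (edgeR adjusted p = 0.0605), nor with a replicate block (edgeR adjusted p = 0.0718). Eif2ak3 (ENSRNOG00000006069), which encodes PERK, the kinase of the endoplasmic reticulum, had 47.0 and 46.1 CPM against 50.2 and 52.6 CPM and did not pass (edgeR adjusted p = 0.310). Ppp1r15a (ENSRNOG00000020938) encodes GADD34, which brings a phosphatase to eIF2 and ends the response. Its values overlapped between the groups, with 39.7 and 52.8 CPM in bleomycin and 57.1 and 47.2 CPM in control libraries.

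Among the transcription factors Atf4 itself differed little and Atf3 and Atf5 moved in opposite directions. Atf4 (ENSRNOG00000017801) had 203 and 195 CPM in bleomycin against 208 and 206 CPM in control libraries, a log2 change of -0.06 ± 0.10 (SE; edgeR adjusted p = 0.695). It was the member with the highest FPKM in both groups, at 142 ± 5.65 FPKM in bleomycin and 148 ± 0.410 FPKM in control (SD, n = 2 each). Since Atf4 is controlled largely at translation, its mRNA does not measure its protein. Atf3 (ENSRNOG00000003745), a stress-induced factor of the same family, rose 2.55-fold, with 34.2 and 34.0 CPM in bleomycin against 15.4 and 11.3 CPM in control libraries (log2 change 1.35 ± 0.18 SE; edgeR adjusted p = 0.0173). The bleomycin libraries were nearly equal and both stood clear of the controls. The FPKM of Atf3 was 0.102 and 0.105 times that of Atf4 in bleomycin and 0.0446 and 0.0332 times in control libraries.

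Atf5 (ENSRNOG00000020060), a factor linked to the mitochondrial stress response, fell by 0.67 ± 0.10 on the log2 scale, with 38.1 and 40.7 CPM in bleomycin against 66.0 and 59.6 CPM in control libraries (edgeR adjusted p = 0.0216). In the RefSeq annotation of the GRCr8 assembly Atf5 overlaps Nup62 and Il4i1 on the other strand, and the counting is not stated to use strand. Nup62 had 2402 and 2419 counts in bleomycin against 1690 and 2168 counts in control libraries, and Il4i1 469 and 305 counts against 149 and 205 counts. Neither of these neighbours was called.

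Ddit3 (ENSRNOG00000006789), which encodes CHOP, the factor of lasting stress, had 13.9 and 21.0 CPM in bleomycin and 15.1 and 16.1 CPM in control libraries. The control values lay between the bleomycin values (log2 change 0.16 ± 0.22 SE). Mars1, which overlaps it on the other strand in RefSeq (GRCr8), had 2974 and 2996 counts against 1975 and 2602 counts and was not called. Cebpb (ENSRNOG00000057347) and Cebpg (ENSRNOG00000021144), bZIP partners of Atf4, also overlapped between the groups, with log2 changes of 0.27 ± 0.24 and 0.09 ± 0.11 (SE). Trib3 (ENSRNOG00000007319), a pseudokinase that CHOP and Atf4 raise and that restrains them, had 15.9 and 21.5 CPM against 15.4 and 11.7 CPM. Bleomycin replicate 1 was barely above control replicate 1, and Trib3 did not pass (edgeR adjusted p = 0.193). In these 4 factors bleomycin replicate 2 was the higher of the bleomycin libraries, unlike most members that stood above the controls.

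The other Atf4 targets did not pass, with 0 of 4 called by edgeR, 2 at an unadjusted p under 0.05 (Vldlr and Stc2) and 1 called by DESeq2 (Stc2). Asns (ENSRNOG00000007546), asparagine synthetase and a standard readout of Atf4, had 31.2 and 33.6 CPM in bleomycin against 29.3 and 26.9 CPM in control libraries, a log2 change of 0.21 ± 0.11 (SE; edgeR adjusted p = 0.249). The groups did not overlap, but the difference was small. Chac1 (ENSRNOG00000014387), which degrades glutathione, had few reads, with 77 and 54 counts in bleomycin against 24 and 49 counts in control libraries. Vldlr (ENSRNOG00000027491), a lipoprotein receptor, and Stc2 (ENSRNOG00000020729), the secreted glycoprotein stanniocalcin 2, were lower in both bleomycin libraries than in either control. Stc2 had 3.52 and 2.45 CPM against 6.77 and 4.97 CPM, a log2 change of -0.98 ± 0.30 (SE; edgeR adjusted p = 0.0833).

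Promoter sequences of 31 members, from 250 bases before to 50 after the start, were found in the RefSeq table (GRCr8), and none for Aldh1l2, Atf3, Mthfd1, Slc1a5 and Aldh18a1. They were searched on both strands for TGATGNAAN, the C/EBP-ATF response element to which Atf4 binds with a C/EBP partner. The element was found in Nupr1, Trib3, Chac1, Pycr1, Slc7a1 and Slc1a4, which is 6 of 31 members (19.4%), beside 3.97% of all 33469 promoters in the table. Several members are listed because they are known Atf4 targets, so this share is a description of the list. Of the 5 of these 6 genes that were measured, only Slc7a1 was called higher, and Pycr1, Chac1, Trib3 and Slc1a4 did not pass. The palindromic CRE, TGACGTCA, was found in Ppp1r15a only (1 of 31, 3.23%, beside 1.83% of all promoters). TGACNNNGC, the core of the antioxidant response element bound by NRF2, was found in 10 of 31 (32.3%, beside 12.1%). For each motif a member counted if any of its promoter entries matched, while the share of all promoters counts each entry. The shares are thus not like measures, and they describe the list only. Slc3a2 held TGACNNNGC only in entry 2 of 2. No 2 motif matches in a member overlapped.

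Windows of 100 bases upstream of the start are shown for the 5 measured genes that hold the element, placed so as to include it, with the element in capitals. The last is the window next to the start of Slc7a11, shown because that gene stood so far above its controls. None of the 3 motifs was found for Slc7a11 in the searched stretch, from 250 bases before to 50 after the start. They are written 5′ to 3′ along each gene's own strand. Their GRCr8 positions are chr12:11664388-11664487 (plus strand) for Slc7a1, chr10:106420889-106420988 (minus strand) for Pycr1, chr3:126795918-126796017 (plus strand) for Chac1, chr3:161275534-161275633 (minus strand) for Trib3, chr14:98761713-98761812 (minus strand) for Slc1a4 and chr2:136668265-136668364 (minus strand) for Slc7a11. These positions are not those of the build used for counting.
Slc7a1: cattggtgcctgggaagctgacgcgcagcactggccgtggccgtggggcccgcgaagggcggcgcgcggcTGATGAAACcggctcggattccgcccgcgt
Pycr1: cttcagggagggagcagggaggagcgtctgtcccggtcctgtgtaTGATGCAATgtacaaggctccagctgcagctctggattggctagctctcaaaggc
Chac1: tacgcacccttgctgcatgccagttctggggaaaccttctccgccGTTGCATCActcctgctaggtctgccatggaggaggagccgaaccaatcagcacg
Trib3: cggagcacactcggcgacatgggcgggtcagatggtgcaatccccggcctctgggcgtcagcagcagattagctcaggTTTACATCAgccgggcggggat
Slc1a4: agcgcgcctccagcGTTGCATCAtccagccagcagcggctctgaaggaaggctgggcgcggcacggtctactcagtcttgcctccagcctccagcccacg
Slc7a11: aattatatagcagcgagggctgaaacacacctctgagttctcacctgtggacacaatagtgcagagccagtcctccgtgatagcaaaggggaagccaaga
In Slc7a1 and Pycr1 the element reads forward, 30 and 131 bases before the start. In Chac1, Trib3 and Slc1a4 it lies on the other strand, so the capitals show its reverse complement, beginning 168, 22 and 236 bases before the start. A match describes letters in a window and not binding. The lack of a match covers only the searched stretch, and sequence farther from the start was not searched.

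Of the amino acid transporters, edgeR called 4 of the 7 tested apart from Slc7a11, beside 16.7% of all tested genes. Slc7a5, Slc1a5 and Slc7a1 were higher and Slc6a9 was lower, and nothing is read from this share. Slc7a11 (ENSRNOG00000010210), the light chain xCT that exchanges glutamate for cystine and so supplies cysteine for glutathione, had 41.5 and 20.5 CPM in bleomycin against 0.579 and 1.10 CPM in control libraries. Its lowest bleomycin value was far above its highest control value. The fitted difference was 36.2-fold, or 24.0-fold without bleomycin replicate 1, and rested on 2542 counts in bleomycin against 68 counts in control libraries. The ratio of the summed CPM was 35.0. Against both controls it was 47.7 for bleomycin replicate 1 and 23.6 for bleomycin replicate 2.

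Slc7a5 (ENSRNOG00000018824), the large neutral amino acid transporter LAT1, rose 3.04-fold, with 63.9 and 40.0 CPM in bleomycin against 13.3 and 20.8 CPM in control libraries (log2 change 1.60 ± 0.31 SE; edgeR adjusted p = 0.0323). Slc1a5 (ENSRNOG00000015948), the glutamine carrier ASCT2, rose 2.02-fold, with 57.3 and 38.2 CPM against 20.9 and 26.2 CPM (log2 change 1.02 ± 0.23 SE; edgeR adjusted p = 0.0446). In both genes bleomycin replicate 1 was the highest library, and neither passed when it was left out, at edgeR adjusted p = 0.0718 for Slc7a5 and edgeR adjusted p = 0.0594 for Slc1a5. With a replicate block they were not called either (edgeR adjusted p = 0.0648 for Slc7a5 and 0.0609 for Slc1a5). Slc7a1 (ENSRNOG00000000924), the cationic amino acid transporter CAT1, which imports arginine and lysine, rose 1.87-fold with nearly equal bleomycin libraries, at 26.7 and 26.0 CPM against 13.1 and 15.1 CPM (log2 change 0.90 ± 0.13 SE; edgeR adjusted p = 0.0196).

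Slc6a9 (ENSRNOG00000019484), the glycine transporter GLYT1, fell 1.95-fold, with 14.4 and 20.4 CPM in bleomycin against 33.2 and 34.6 CPM in control libraries (log2 change -0.96 ± 0.19 SE; edgeR adjusted p = 0.0325). Ccdc24, which overlaps it on the other strand in RefSeq (GRCr8), had 60 and 141 counts against 169 and 240 counts, lower in the same libraries, and its part in the fall was not tested. Slc1a4 (ENSRNOG00000005248), a neutral amino acid carrier of serine and alanine, had 32.9 and 30.7 CPM against 22.1 and 26.9 CPM and did not pass (edgeR adjusted p = 0.121). Slc38a2 (ENSRNOG00000006305), the amino-acid-responsive carrier SNAT2, overlapped between the groups, with 183 and 226 CPM in bleomycin and 193 and 190.0 CPM in control libraries.

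Slc3a2 (ENSRNOG00000018487), the heavy chain CD98 that carries Slc7a5, Slc7a11 and related light chains to the cell surface, overlapped between the groups at 227 and 231 CPM in bleomycin and 261 and 224 CPM in control libraries (log2 change -0.08 ± 0.12 SE). Per length, its 111.2 and 111.5 FPKM in bleomycin and 126.4 and 109.2 FPKM in control libraries exceeded the summed FPKM of 6 light chains in every library. That set (Slc7a5, Slc7a6, Slc7a7, Slc7a8, Slc7a10 and Slc7a11) was put together after the values were seen. The light chains summed to 82.6 and 68.3 FPKM in bleomycin and 57.8 and 48.1 FPKM in control libraries. Slc7a5 made up 22.5% and 16.8% of that sum in bleomycin and 6.64% and 12.5% in control libraries, and Slc7a11 5.69% and 3.35% against 0.104% and 0.249%. Slc7a8, another carrier of neutral amino acids, and Slc7a10, a carrier of small ones, fell (edgeR adjusted p = 0.0334 and edgeR adjusted p = 0.0318). Slc7a8 made up 7.02% and 10.03% of the sum in bleomycin and 17.8% and 20.1% in control libraries, and Slc7a10 0.460% and 1.90% in bleomycin and 10.4% and 14.5% in control libraries. Slc7a7 was the most abundant light chain in each library, at 42.1 and 37.8 FPKM against 30.1 and 18.1 FPKM.

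**Figure D2:**
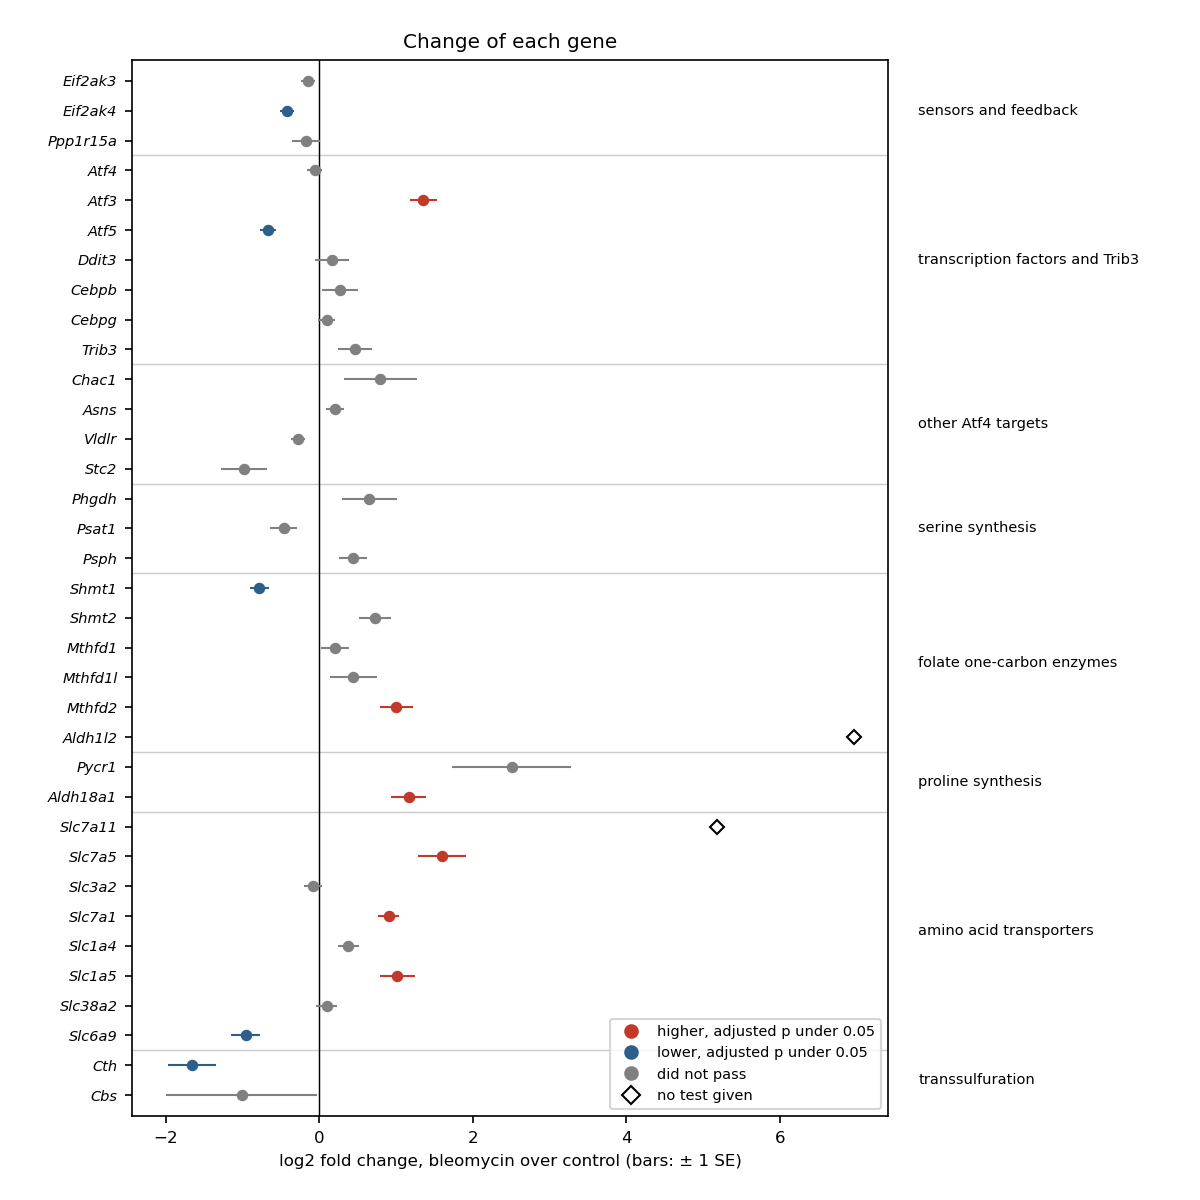
Log2 fold change, bleomycin over control, of each member with ± 1 SE (edgeR), grouped by role. Red and blue mark an adjusted p under 0.05 and open diamonds the 2 genes given without a test. Atf3, Mthfd2, Aldh18a1, Slc7a5, Slc7a1 and Slc1a5 lie to the right and Eif2ak4, Atf5, Shmt1, Slc6a9 and Cth to the left, with Atf4 and Slc3a2 close to 0.

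Among the folate enzymes a mitochondrial one rose and a cytosolic one fell. Mthfd2 (ENSRNOG00000010833), a mitochondrial methylenetetrahydrofolate dehydrogenase, rose, with 19.2 and 13.6 CPM in bleomycin against 8.34 and 8.04 CPM in control libraries (log2 change 1.00 ± 0.21 SE; edgeR adjusted p = 0.0376). Shmt1 (ENSRNOG00000005275), the cytosolic serine hydroxymethyltransferase that makes glycine from serine, fell 1.72-fold, with 27.6 and 30.3 CPM against 45.6 and 53.7 CPM (log2 change -0.78 ± 0.13 SE; edgeR adjusted p = 0.0233). Its mitochondrial counterpart Shmt2 (ENSRNOG00000008106) had 52.2 and 35.3 CPM against 25.2 and 27.6 CPM. Ndufa4l2, which overlaps it on the other strand in RefSeq (GRCr8), had 634 and 842 counts against 730 and 928 counts. Both bleomycin libraries were above both controls in Shmt2, but it did not pass (log2 change 0.73 ± 0.21 SE; edgeR adjusted p = 0.071), and it passed without bleomycin replicate 2 (edgeR adjusted p = 0.00724) and by DESeq2 (adjusted p = 0.0163). Per length, the ratio of Shmt2 to Shmt1 was 1.86 and 1.15 in bleomycin against 0.545 and 0.507 in control libraries, so Shmt2 exceeded Shmt1 in both bleomycin libraries and in neither control.

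Aldh1l2 (ENSRNOG00000008586), the mitochondrial 10-formyltetrahydrofolate dehydrogenase, which releases carbon dioxide from formyl folate and makes NADPH, was the member with the largest fitted difference. It had 21.6 and 3.70 CPM in bleomycin against 0.0579 and 0.138 CPM in control libraries, which were 854 and 163 counts against 2 and 6 counts. The controls lay near the floor of 3 counts and the bleomycin libraries differed 5.85-fold from each other. The ratio of summed CPM was 119. Against both controls it was 211.5 for bleomycin replicate 1 and 36.15 for bleomycin replicate 2. The fitted difference was 125-fold, but 36.5-fold with bleomycin replicate 1 left out, 210-fold with bleomycin replicate 2 left out and 218-fold with control replicate 2 left out. Bleomycin replicate 1 was also the library with the higher summed fibroblast and dividing-cell markers, and their part in this difference was not tested. The cytosolic counterpart Aldh1l1 had 1.02 and 1.00 FPKM against 1.02 and 1.52 FPKM and was not called.

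Mthfd1 (ENSRNOG00000005602), the trifunctional cytosolic enzyme, and Mthfd1l (ENSRNOG00000019582), the mitochondrial formate-producing synthetase, overlapped between the groups. Mthfd1 had 59.8 and 42.4 CPM in bleomycin and 43.6 and 45.1 CPM in control libraries, and Mthfd1l had 26.1 and 15.9 CPM and 12.4 and 18.4 CPM. In each, bleomycin replicate 1 was the highest library and bleomycin replicate 2 lay below at least one control. Mthfd1 passed with bleomycin replicate 2 left out (edgeR adjusted p = 0.029). Per length, Mthfd2 and Mthfd1l together stood at 0.910 and 0.852 times Mthfd1 in bleomycin against 0.563 and 0.652 times in control libraries.

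The enzymes that make serine from a glycolytic intermediate did not pass, with 0 of 3 called by edgeR, 1 at an unadjusted p under 0.05 (Psat1) and 0 called by DESeq2. Phgdh (ENSRNOG00000019328), the entry enzyme, had 7.55 and 4.58 CPM in bleomycin and 3.04 and 4.65 CPM in control libraries, so that bleomycin replicate 2 was no higher than control replicate 2. Psat1 (ENSRNOG00000013971), the aminotransferase of the second step, had 21.96 and 17.2 CPM against 24.4 and 29.5 CPM (log2 change -0.46 ± 0.18 SE; edgeR adjusted p = 0.131). Psph (ENSRNOG00000000925), the phosphatase of the last step, had 10.3 and 8.71 CPM against 6.80 and 7.17 CPM (log2 change 0.44 ± 0.18 SE; edgeR adjusted p = 0.145). The 3 enzymes of this short pathway therefore had estimates of different sign.

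Both proline-making members lay above the controls in each bleomycin library. Aldh18a1 (ENSRNOG00000015267), the pyrroline-5-carboxylate synthase that starts proline synthesis from glutamate, rose 2.24-fold, with 28.4 and 19.8 CPM in bleomycin against 9.49 and 12.0 CPM in control libraries (log2 change 1.16 ± 0.23 SE; edgeR adjusted p = 0.0326). Pycr1 (ENSRNOG00000036682), the mitochondrial reductase of the last step, had 6.97 and 2.59 CPM against 0.347 and 1.31 CPM. Myadml2, which overlaps it on the same strand in RefSeq (GRCr8), had only 12 and 19 counts against 7 and 20 counts. The controls of Pycr1 differed 3.76-fold and its bleomycin libraries 2.69-fold, and it did not pass (log2 change 2.50 ± 0.77 SE; edgeR adjusted p = 0.0846). The fitted fold of Pycr1 was 5.67 with all libraries, 3.07 with bleomycin replicate 1 left out, 3.62 with control replicate 1 left out and 13.7 with control replicate 2 left out. With bleomycin replicate 2 left out it passed (edgeR adjusted p = 0.0479), as it did by DESeq2 (adjusted p = 0.00536).

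Transsulfuration, the route that makes cysteine from methionine inside the cell, was represented by Cth and Cbs. Cth (ENSRNOG00000010658), cystathionine gamma-lyase, fell 3.17-fold, with 2.58 and 4.17 CPM in bleomycin against 12.4 and 9.05 CPM in control libraries (log2 change -1.66 ± 0.31 SE; edgeR adjusted p = 0.0301). Both bleomycin libraries were well below both controls. Per length, Cth stood at 1.73 and 2.76 FPKM and Slc7a11, the route of cystine import, at 4.70 and 2.29 FPKM in bleomycin, whereas in control libraries Cth stood at 8.23 and 6.03 FPKM and Slc7a11 at 0.06 and 0.12 FPKM. Cbs (ENSRNOG00000029528), cystathionine beta-synthase, was close to the limit of detection with 26 and 3 counts in bleomycin against 23 and 34 counts in control libraries. Its low bleomycin value came from replicate 2 alone, and its fitted log2 change was -3.42 without bleomycin replicate 1 and -0.15 without bleomycin replicate 2.

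**Figure D3:**
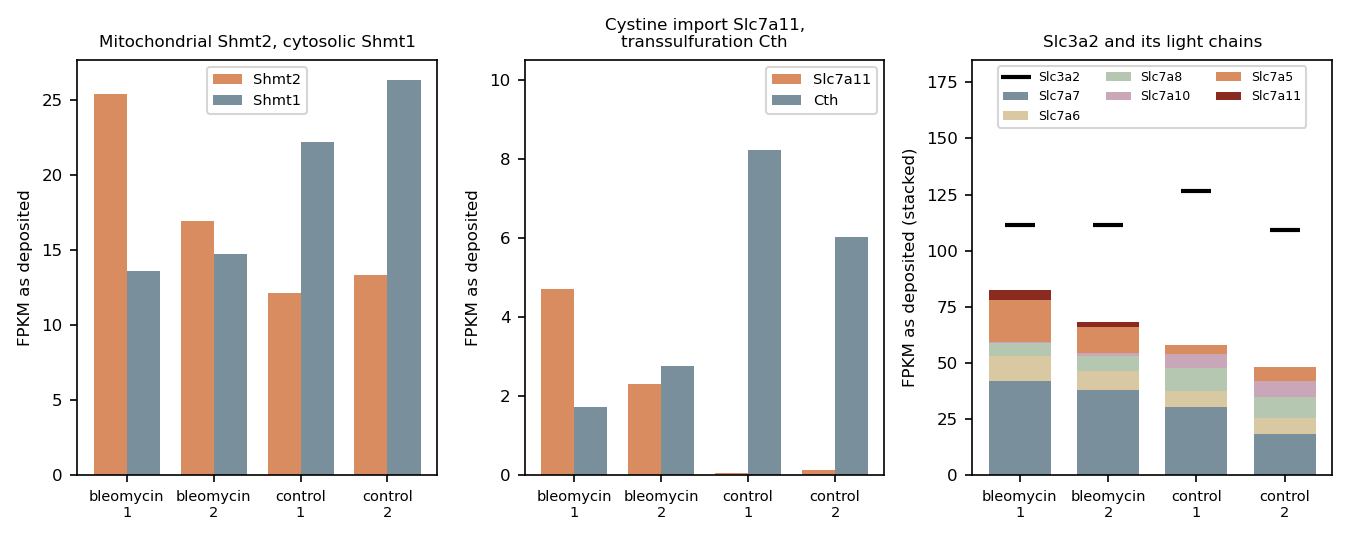
FPKM per library of Shmt2 beside Shmt1 (left), Slc7a11 beside Cth (middle), and the 6 light chains stacked with their heavy chain Slc3a2 as a black line (right). Shmt2 exceeded Shmt1 in both bleomycin libraries and in neither control, Slc7a11 rested near 0 in the controls, and Slc3a2 lay between 109.2 and 126.4 FPKM while the light chains summed to 82.6 and 68.3 FPKM in bleomycin and 57.8 and 48.1 FPKM in control.

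The bleomycin libraries also differed from each other. Of the 15 members above both controls, 13 were higher in bleomycin replicate 1 than in replicate 2, the exceptions being Trib3 and Asns. For 24 of the 35 members, replicate 1 was the bleomycin library with the larger difference from the mean of the controls. Atf3 and Slc7a1 were steady, with a ratio between the bleomycin libraries of 1.01 for Atf3 and 1.03 for Slc7a1. Replicate 1 was also the bleomycin library with the higher summed fibroblast and dividing-cell markers. Most of its fibroblast sum came from Col3a1, Col1a1 and Col1a2 (7468, 5167 and 1773 CPM). Of the fibroblast markers only Postn was lower in replicate 1 than in replicate 2 (433 and 599 CPM). The summed macrophage markers were nearly equal in the 2. Single ones differed either way, with Spp1 at 497 and 272 CPM and Mmp12 at 77.9 and 126 CPM. How far these cell types account for the differences among members was not tested.

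**Figure D4:**
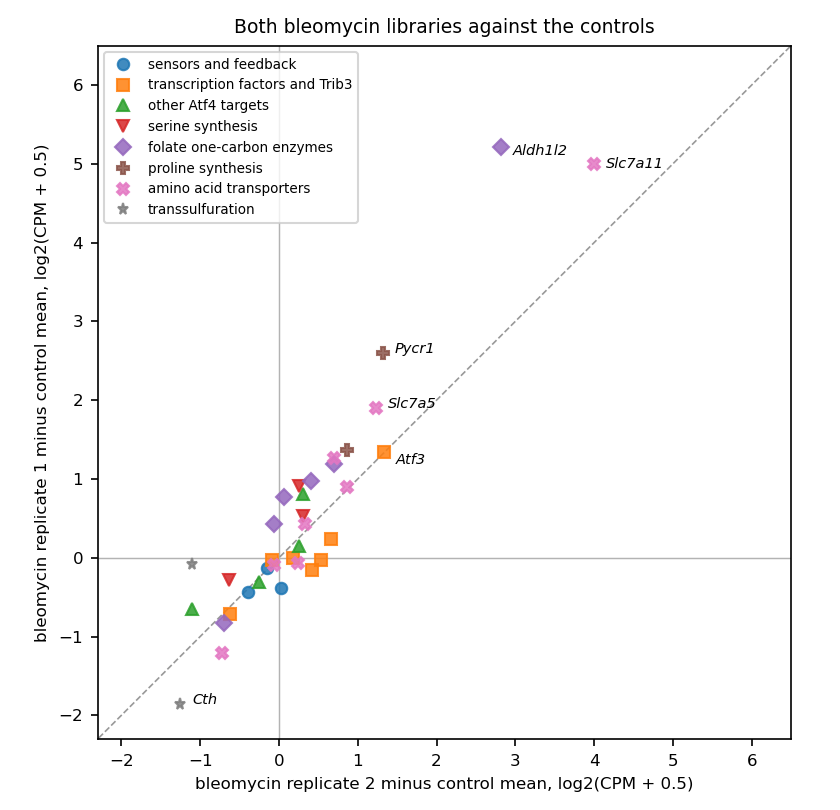
Difference from the control mean, on the scale of log2(CPM + 0.5), in bleomycin replicate 1 (vertical) and bleomycin replicate 2 (horizontal) for the 35 members, with the dashed line marking equal differences. Slc7a11, Aldh1l2, Pycr1 and Slc7a5 lie above the line, farther from the controls in replicate 1, and Atf3 lies on it.

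Other genes of the pathway were taken from lists that did not include the members. These lists too were chosen with earlier results of these data known. Nothing is therefore read from the shares of their genes, here or in the single lists below. Of 148 listed genes 144 were found and 141 tested, with a median log2 change of 0.33. Over all tested genes DESeq2 called more than edgeR, with 2136 higher and 1887 lower. Of the 141 listed genes 26 rose and 7 fell by edgeR, or 18.4% and 4.96%, beside 9.26% and 7.44% of all tested genes. By DESeq2 44 rose and 12 fell, and edgeR called 0 of the 141 when either control was left out. In the eIF2 machinery 2 of 12 rose, with a median log2 change of 0.12. These were Eif2s1, the subunit that the kinases phosphorylate, by 0.54 ± 0.09 on the log2 scale (SE; edgeR adjusted p = 0.0262), and the beta subunit gene Eif2s2, by 0.57 ± 0.09 (SE; edgeR adjusted p = 0.0246). Of 12 further Atf4 and CHOP targets 1 rose and 1 fell, with a median of 0.01. At an unadjusted p under 0.05 by edgeR there were 7, and DESeq2 called 5 (Ddit4, Eif4ebp1, Gpt2, Gadd45a and Xpot). The edgeR log2 changes went both ways, at 0.74 for Eif4ebp1, -0.61 for Ddit4 and -0.35 for Xpot, which did not pass by edgeR. Gpt2, a mitochondrial alanine aminotransferase, rose 2.36-fold (edgeR adjusted p = 0.0321), or 1.94-fold without passing when bleomycin replicate 1 was left out (edgeR adjusted p = 0.0523), and the growth arrest gene Gadd45a fell by 0.56 ± 0.10 on the log2 scale (edgeR adjusted p = 0.0293). Gdf15, a secreted stress hormone, had 9.24 and 13.0 CPM in bleomycin against 7.53 and 6.07 CPM in control libraries and did not pass (edgeR adjusted p = 0.0994), although it passed with bleomycin replicate 1 left out (edgeR adjusted p = 0.049). Fgf21, the other stress hormone of the response, had 4 and 6 counts in bleomycin against 9 and 8 counts in control libraries and was not tested.

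Of the 19 aminoacyl-tRNA synthetases, which charge transfer RNAs and include well-known Atf4 targets, 3 rose by edgeR (15.8%, beside 9.26% of all tested genes). By DESeq2, which also called more of all tested genes than edgeR, 7 rose. Their median log2 change by edgeR was 0.32. The bleomycin libraries lay above both controls for 18 of the 19, all but Iars, beside 35.1% of all tested genes. That share describes the list only. The differences were small. Farsb rose 1.58-fold (edgeR adjusted p = 0.022), Gars 1.59-fold (edgeR adjusted p = 0.0352) and Vars 1.53-fold (edgeR adjusted p = 0.0472). Vars did not pass with bleomycin replicate 1 left out (edgeR adjusted p = 0.0849) or with a replicate block (edgeR adjusted p = 0.0628).

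In the wider one-carbon and methionine cycle list 3 of 23 tested genes rose, with a median of 0.31. That was 13%, beside 9.26% of all tested genes. Folr2, the folate receptor of macrophages, rose 10.8-fold, with 62.3 and 23.9 CPM in bleomycin against 3.62 and 4.38 CPM in control libraries (edgeR adjusted p = 0.0199), or 5.96-fold without bleomycin replicate 1. Sfxn1, the mitochondrial serine carrier, rose 1.77-fold (edgeR adjusted p = 0.036). Of 16 genes of glutathione synthesis and the NRF2 response 2 rose, or 12.5%, with a median of 0.39. Hmox1, heme oxygenase, rose 5.55-fold, or 3.42-fold without bleomycin replicate 1 (edgeR adjusted p = 0.0239 in all libraries), and Ggt1, which breaks down glutathione outside the cell, 2.19-fold (edgeR adjusted p = 0.0271). Gclc and Gclm, the subunits that limit glutathione synthesis, overlapped between the groups, with log2 changes of 0.11 ± 0.16 and -0.01 ± 0.17 (SE). Both were named after their values were seen.

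The Atf6 and Xbp1 branch of the unfolded protein response shares its trigger with the kinase PERK. In its list 8 of 16 genes were called higher, beside 9.26% of all tested genes, with a median log2 change of 0.64. Of those not called by edgeR, Xbp1, Hsp90b1 and Hyou1 lay above both controls. Atf6, Dnajb9 and Sel1l overlapped between the groups, and Ern1 and Edem1 lay below both controls. DESeq2 also called Hsp90b1, Hyou1 and Ern1. Sdf2l1, an endoplasmic reticulum cofactor, rose 2.05-fold (edgeR adjusted p = 0.0123), Manf, a secreted stress factor, 2.09-fold (edgeR adjusted p = 0.0142) and Creld2 2.07-fold (edgeR adjusted p = 0.0174). Per length, Calr, the chaperone calreticulin, was the most abundant of the called genes of this list. It had 587 ± 10.9 FPKM in bleomycin and 350 ± 29.6 FPKM in control libraries (SD, n = 2 each). The called gene Hspa5 had 391 ± 91.0 and 178 ± 14.3 FPKM. In CPM, Calr stood at 1094 ± 8.92 in bleomycin and 654 ± 58.2 in control libraries. In the same libraries Ddit3 and Trib3, the CHOP arm given above, did not pass.

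**Figure D5:**
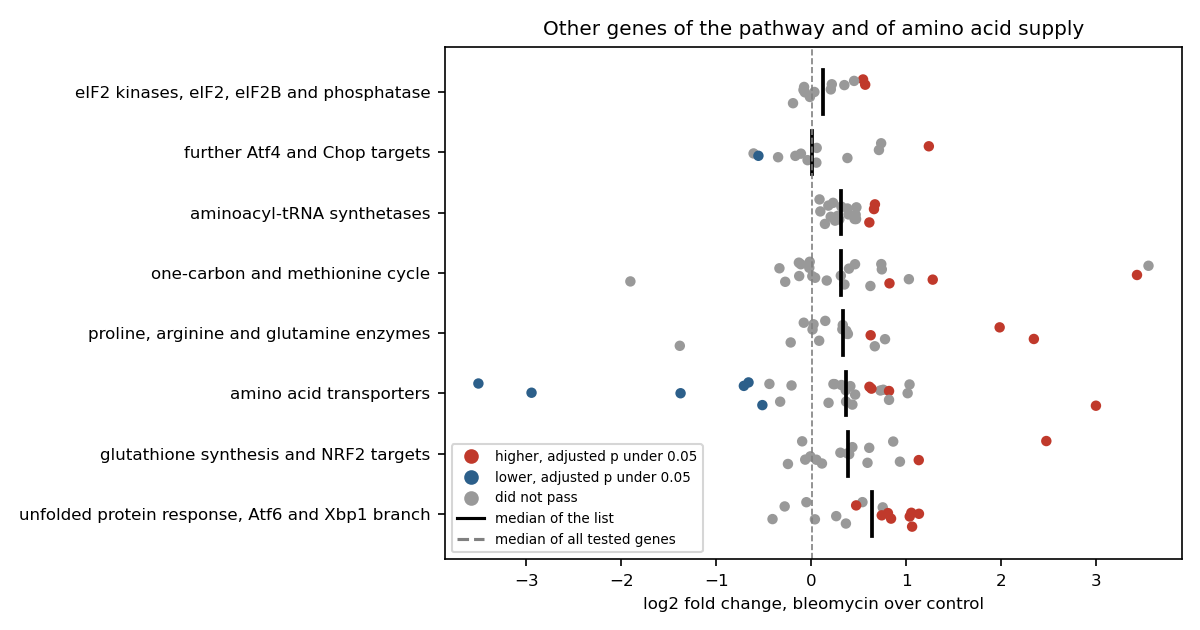
Log2 fold change, bleomycin over control, of each tested gene in 8 lists of the wider pathway; black bars mark list medians and the dashed line the median of all tested genes at 0.013. The unfolded protein response list has the highest median, 0.64, and the further Atf4 and CHOP targets centre on 0.01.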

How the data were processed

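Poly(A)-selected, randomly primed lung mRNA was sequenced from 4 rats, per the labels' protocols. The build was Rnor_6.0, and the tools named were HISAT2, StringTie 1.3.1, fastp 0.18.0, CASAVA 1.8 and DESeq2 (per the submitters' processing notes). Not given in the sources used here are their settings and whether counting used strand. Each file holds raw counts per gene and FPKM values, both as deposited by the authors. The members and gene lists were chosen with earlier results of these data known.

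Counts were fitted with edgeR 4.0.16 in R 4.3.3, keeping genes by filterByExpr (a minimum count of 10 in at least 2 libraries and 15 in all). Scaling was by TMM, the test was the robust quasi-likelihood F test on group alone, and p-values were Benjamini-Hochberg adjusted over all 15709 tested genes. The SE was taken as the unshrunk log2 change over the root of its F value. The fit was also run on simulated counts, and that outcome is not reported here. CPM and FPKM are mean ± SD over libraries. With 2 against 2 libraries an exact permutation test cannot go below p = 0.333, so none is given. Replicates differed by 96.6 (bleomycin) and 22.6 (control) times the sampling variance, so none was a copy. The labels' protocols give 2 rats and the sample titles 2 replicates per group; each library is taken to be 1 rat, which the titles do not state, and p-values measure only the spread between these libraries.

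Named genes were all members and, from each other list, the 3 called genes with the smallest p, the called gene with the highest FPKM, and Gdf15 and Fgf21. Some results under this rule are not reported here. Alternatives were RLE scaling, no filter, DESeq2 1.42.0, limma 3.58.1 on log2(FPKM + 1) and log2(FPKM + 0.1), non-robust dispersion, a replicate block and leaving out each library. Reads shared between near-identical gene copies were not examined. No column of another sample was present.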

Additional observations from a re-analysis of the deposited data

How the results depend on the processing

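Under RLE scaling, no filter on low counts and non-robust dispersion all 11 called members kept their call. DESeq2 kept the 11 and added Shmt2, Stc2 and Pycr1; over all genes it called 2136 higher and 1887 lower, against 1455 and 1169 by edgeR, and in the wider pathway 44 higher and 12 lower, against 26 and 7 by edgeR. Limma on log2(FPKM + 1) lost Eif2ak4 and Slc1a5, and on log2(FPKM + 0.1) it lost Eif2ak4; with the pseudocount of 1 the differences of Aldh1l2 and Slc7a11 were 4.39-fold and 3.97-fold, and with 0.1 they were 25.2-fold and 18.1-fold, since a pseudocount understates the change of low genes. The labels do not say whether a replicate number marks a shared litter or day, and the differences between replicates of the 2 groups correlated at -0.032 across genes. With the replicate number as a block, 1225 genes were higher and 1026 lower, and 4 members were higher and 4 lower.

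Leaving out 1 library at a time, the calls over all genes ranged from 13 to 2569 higher and from 8 to 2573 lower, members from 0 to 9 higher and from 0 to 5 lower, and the wider pathway from 0 to 59 higher and from 0 to 14 lower. The lowest counts came without a control, where the lone control is assumed to vary like the bleomycin pair, and the highest counts of higher genes without bleomycin replicate 2. The median log2 change of the 33 members ranged from -0.013 (without bleomycin replicate 2) to 0.234, and was 0.117 without control replicate 1. The cause was not tested. The shorter motif TGATGNAA was also found in 6 of 31 member promoters, beside 3.98% of all, and TTGCATCA in 4 of 31, beside 0.795%. No called member changed sign under any of the 11 alternatives run. With 2 libraries per group, differences that did not pass are not shown to be absent, and Cbs in bleomycin replicate 2 and Aldh1l2 in the controls rest on 6 counts or fewer.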

Other observations

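The wider amino acid transporters went both ways, with 4 of 27 tested genes called higher and 6 lower by edgeR, or 14.8% and 22.2%. Among all tested genes 9.26% were called higher and 7.44% lower, and nothing is read from these shares. Slc7a9, the light chain of the kidney-type cystine transporter, had 2.36 and 1.29 CPM in bleomycin against 0.203 and 0.252 CPM in control libraries, a 7.97-fold rise (edgeR adjusted p = 0.0279). With bleomycin replicate 1 left out it was 5.64-fold and did not pass (edgeR adjusted p = 0.0683). Slc6a14, a broad neutral and cationic amino acid importer, rose 1.55-fold, at 206 ± 30.6 CPM in bleomycin and 133 ± 7.89 CPM in control libraries (SD, n = 2 each; edgeR adjusted p = 0.0417), and did not pass with a replicate block (edgeR adjusted p = 0.059). Slc6a20, a proline transporter, fell 1.64-fold (edgeR adjusted p = 0.0229), with 20.7 and 19.7 CPM in bleomycin against 31.8 and 34.2 CPM in control libraries. Slc6a15, a neutral amino acid transporter best known from neurons, fell 11.3-fold from a low level, with 0.101 and 0.181 CPM against 1.77 and 1.47 CPM (edgeR adjusted p = 0.0215).

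Among 17 genes of proline, arginine and glutamine metabolism 3 rose, or 17.6%, beside 9.26% of all tested genes. Arg1, the arginase that makes ornithine, rose 5.07-fold, with 110.1 and 48.3 CPM in bleomycin against 14.7 and 16.5 CPM in control libraries (edgeR adjusted p = 0.0265), or 3.08-fold without bleomycin replicate 1. P4ha3, a collagen prolyl hydroxylase subunit, rose 3.95-fold (edgeR adjusted p = 0.0292), and Got1, the cytosolic aspartate aminotransferase, 1.54-fold (edgeR adjusted p = 0.027).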
